A study of Arabidopsis thaliana with 18 samples.

Results

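COR15A, COR15B, KIN1, KIN2, COR78, RD29B, COR413PM1 and COR413IM1 are 8 cold- and drought-regulated genes of Arabidopsis thaliana. They were chosen by locus identifier (AT2G42540, AT2G42530, AT5G15960, AT5G15970, AT5G52310, AT5G52300, AT2G15970 and AT1G29395), not by a measured value, and are 8 of the 33602 genes in the count table. All 8 passed the filter on low counts, which left 21918 genes for testing. Their 22 introns, of 120717 in the intron table, and their 3 alternative splicing bins, of 7973, were followed as well.

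RNA was sequenced from whole plants, aged 9 days, of the Col ecotype (WT) and of the gemin2 mutant. GEMIN2 encodes a factor that helps to assemble the small nuclear ribonucleoproteins of the spliceosome; the labels do not describe the gemin2 allele. All plants grew in continuous white light. The 6 groups were WT and gemin2 kept at 22 °C, moved to 10 °C for 1 h, or moved to 10 °C for 24 h, with 3 libraries a group, lettered A to C in the count tables. The 18 libraries held 15675913 to 53766089 counts on genes. Levels are given in CPM, counts scaled to a common library size with TMM factors, with SD over n = 3 libraries. GEMIN2 itself stood at 10.5 to 21.4 CPM in the 9 WT libraries and at 2.88 to 5.66 CPM in the 9 gemin2 libraries, and was lower in gemin2 by a log2 change of -1.81 at 22 °C, -1.90 at 1 h and -1.99 at 24 h. The labels do not say whether replicates came from separate cultures, so the p-values measure the spread between these libraries, which may be technical. In RNA of whole plants, fewer cells of a type and less RNA per cell cannot be told apart.

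Genes of this kind are the classical targets of cold acclimation, the process by which a temperate plant gains freezing tolerance at low, nonfreezing temperature. The CBF transcription factors, induced within the first hours of cold, bind the CRT/DRE element and switch on the COR (cold-regulated) genes. Drought and salt act on many of the same genes through abscisic acid (ABA) and the ABRE element, which is bound by bZIP factors. COR15A and COR15B are small hydrophilic proteins of the chloroplast stroma that protect membranes, KIN1 and KIN2 are small hydrophilic proteins, COR78 (also RD29A) and RD29B are larger hydrophilic proteins, and COR413PM1 and COR413IM1 are membrane proteins placed in the plasma membrane and in the inner envelope of the chloroplast.

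Of these genes, 6 lie in 3 neighbouring pairs. In the TAIR10 coordinates of the deposited tables, COR15A lies at chr2:17711032-17712330 and COR15B at chr2:17709036-17709945, both on the minus strand, with 1086 bases between them. KIN1 lies at chr5:5209898-5210727 and KIN2 at chr5:5211911-5212665, both on the plus strand, with 1183 bases between them. RD29B lies at chr5:21237056-21239529 and COR78 at chr5:21240849-21243613, both on the plus strand, with 1319 bases between them. COR413PM1 lies at chr2:6950041-6951192 on the plus strand and COR413IM1 at chr1:10288197-10289621 on the minus strand, 93 bases from its relative COR413IM2. No other gene of the table overlaps any of the 8. The coding sequences were 95.0% identical between KIN1 and KIN2 (191 of 201 positions), 83.8% between COR15A and COR15B and 79.7% between COR78 and RD29B. The longest stretch shared without a mismatch between the RefSeq transcripts was 58 bases for the KIN pair, 31 for the COR15 pair and 41 for COR78 and RD29B. For COR413IM1 and COR413IM2 it was 59 bases, with 87.2% identity of the coding sequences. Values of KIN1 against KIN2 are uncertain to the extent that the counting, whose treatment of multiply matching reads is not given in the sources used here, split or dropped reads between them.

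The promoters of COR15A, COR78 and RD29B, which differ in the elements they carry, are shown. After 24 h of cold COR15A had the largest rise among the 8 and RD29B, the neighbour of COR78, the only fall. The promoter of COR15B, which rose more than COR78, is not shown. Each window is the 250 bases before the RefSeq gene start (assembly TAIR10.1), read 5′ to 3′ on the gene's strand: chr2:17712331-17712580 on the minus strand for COR15A, chr5:21240467-21240716 on the plus strand for COR78 and chr5:21236771-21237020 on the plus strand for RD29B. Capitals mark the CRT/DRE core (CCGAC, or GTCGG read on the other strand) and the ABRE core (ACGTG, or CACGT on the other strand; CACGTG holds the core on both strands and counts at 2 positions).
COR15A: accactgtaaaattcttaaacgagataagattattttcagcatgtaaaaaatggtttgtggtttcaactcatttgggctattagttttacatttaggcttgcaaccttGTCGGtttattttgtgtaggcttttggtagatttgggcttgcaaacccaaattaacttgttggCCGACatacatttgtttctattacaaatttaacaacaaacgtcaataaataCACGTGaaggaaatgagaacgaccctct
COR78: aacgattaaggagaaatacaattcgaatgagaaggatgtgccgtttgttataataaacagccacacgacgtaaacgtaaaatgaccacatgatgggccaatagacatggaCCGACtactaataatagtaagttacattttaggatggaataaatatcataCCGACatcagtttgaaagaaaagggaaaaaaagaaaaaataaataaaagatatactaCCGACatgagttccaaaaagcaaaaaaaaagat
RD29B: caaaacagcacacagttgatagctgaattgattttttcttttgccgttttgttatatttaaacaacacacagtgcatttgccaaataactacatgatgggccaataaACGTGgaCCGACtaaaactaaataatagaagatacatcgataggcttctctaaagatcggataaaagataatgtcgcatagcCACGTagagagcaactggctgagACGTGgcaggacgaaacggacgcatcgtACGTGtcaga

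In these windows COR78 held 3 CRT/DRE cores and no ABRE core, whereas RD29B held 4 ABRE cores and 1 CRT/DRE core. COR15A held 2 of each. Of all 26711 promoters of the same length, 0.191% held at least 3 CRT/DRE cores and 1.37% held at least 4 ABRE cores. At least 1 CRT/DRE core was found in 4 of the 8 genes and in 11.9% of all promoters, and at least 1 ABRE core in 5 of the 8 and in 23.1% of all promoters. RefSeq places the start of all of these genes except COR15A upstream of the start in the deposited tables. It starts COR15B at chr2:17710433 and places COR15A at chr2:17710441-17712330. The RefSeq windows of COR15B, with no core of either kind in 250 bases, thus lie largely inside the COR15A gene. Counted over 500 bases before the RefSeq start, 3 of the 8 genes held both cores, against 8.54% of all promoters. Counted over 500 bases before the start in the deposited tables, all 8 genes held both cores, against 9.48% of all genes. Except for COR15A, these last windows include bases that lie inside the RefSeq gene. COR78 then held 4 CRT/DRE cores, which 0.172% of genes reached, and KIN2 held the most ABRE cores, 7. These matches describe the letters in a window and not a bound site.

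**Figure D1:**
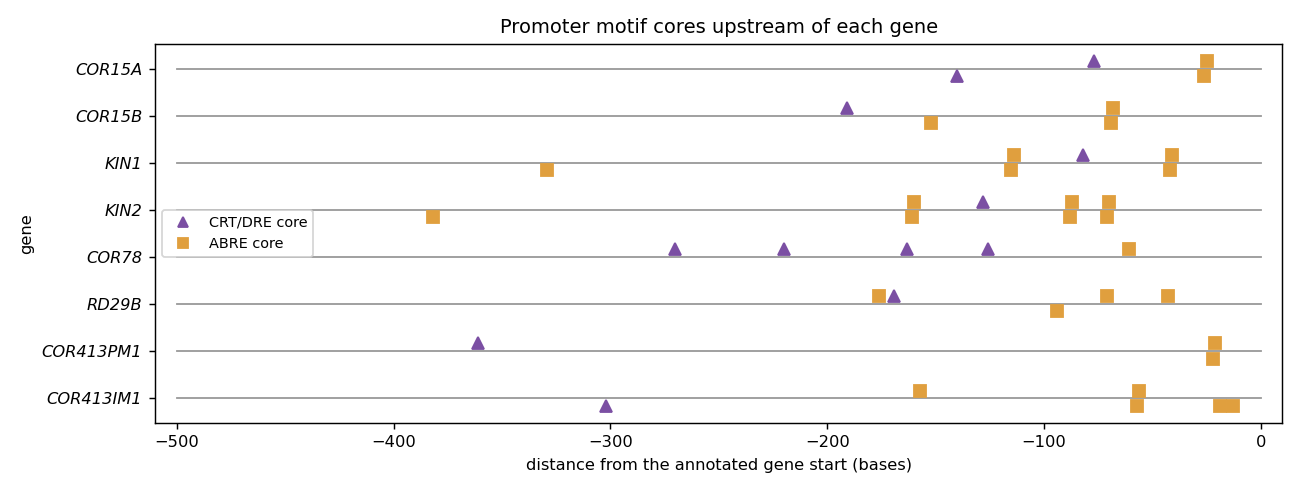
Positions of CRT/DRE cores (CCGAC) and ABRE cores (ACGTG) in the 500 bases before the gene start of the deposited tables, 1 line per gene, with distance to the start on the x axis in bases and marks above the line for the gene's own strand. COR78 carries 4 CRT/DRE cores, while each of the other genes carries 1 or, in COR15A, 2. In the 500 bases before the RefSeq starts, which are not drawn, COR78 carries 3 and KIN1 and KIN2 carry none.

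After 24 h at 10 °C, 7 of the 8 genes had risen and RD29B had fallen in WT. The largest change was that of COR15A, which rose 105-fold, followed by COR15B (87.3-fold), COR78 (37.1-fold), KIN1 (13.2-fold), KIN2 (10.2-fold), COR413IM1 (7.80-fold) and COR413PM1 (2.66-fold). RD29B was 14.8-fold lower. All 8 passed edgeR's quasi-likelihood test at a Benjamini-Hochberg adjusted p under 0.05, with 7 genes higher and 1 lower, where 55.7% of all genes tested were called, 27.1% higher and 28.6% lower. The 22 °C and 24 h libraries did not overlap for any of the 8, 7 being higher and 1 lower; over all genes 28.9% were higher and 30.2% lower without overlap. The 8 genes took 0.101% ± 0.0136 of all counts in WT at 22 °C and 1.94% ± 0.173 after 24 h (SD, n = 3). The median log2 change of the 8 was 3.54, beside -0.02 over all genes tested.

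COR15A had 78.2, 66.0 and 47.0 CPM in WT libraries A, B and C at 22 °C, and 7896, 5289 and 6892 CPM after 24 h. It ranked as the gene with the 4th most counts in each of the 3 WT libraries at 24 h, from places 2001 to 3417 at 22 °C. Its log2 change was 6.71 ± 0.26 (SE, adjusted p = 2.623e-13). COR15B had 12.4, 13.5 and 14.7 CPM at 22 °C and 1452, 891 and 1213 CPM after 24 h. The groups lay far apart for both genes, and library B was the lowest of the 24 h libraries for both. The log2 change of COR15B was 6.45 ± 0.23 (adjusted p = 1.333e-13).

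KIN2, the gene with the highest level of the 8 at 22 °C, had 490, 600 and 483 CPM in WT there and 5160, 4975 and 5945 CPM after 24 h. KIN1 had 248, 261 and 219 CPM at 22 °C and 3059, 2916 and 3657 CPM after 24 h. Neither gene's groups overlapped, and library C was the highest at 24 h for both. The log2 changes were 3.35 ± 0.14 for KIN2 (adjusted p = 5.277e-13) and 3.73 ± 0.16 for KIN1 (adjusted p = 1.079e-12). COR78 had 48.4, 70.5 and 47.1 CPM at 22 °C and 2280, 1790 and 2085 CPM after 24 h. Its log2 change was 5.21 ± 0.20 (adjusted p = 2.505e-13).

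The membrane proteins changed less. COR413IM1 had 23.5 to 30.0 CPM in WT at 22 °C and 266, 164 and 218 CPM after 24 h, a log2 change of 2.96 ± 0.18 (adjusted p = 7.396e-11). COR413PM1 had 50.7, 60.7 and 48.9 CPM at 22 °C and 137, 144 and 145 CPM after 24 h, a log2 change of 1.41 ± 0.11 (adjusted p = 2.053e-09). All 24 h libraries lay above all 22 °C libraries for both genes. RD29B, the member best known as an ABA-responsive gene, had 23.0, 45.9 and 15.2 CPM at 22 °C and 2.49, 1.67 and 1.66 CPM after 24 h, where the 3 libraries together held 167 counts of it. Its log2 change was -3.89 ± 0.42 (adjusted p = 1.919e-07), and the groups did not overlap.

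**Figure D2:**
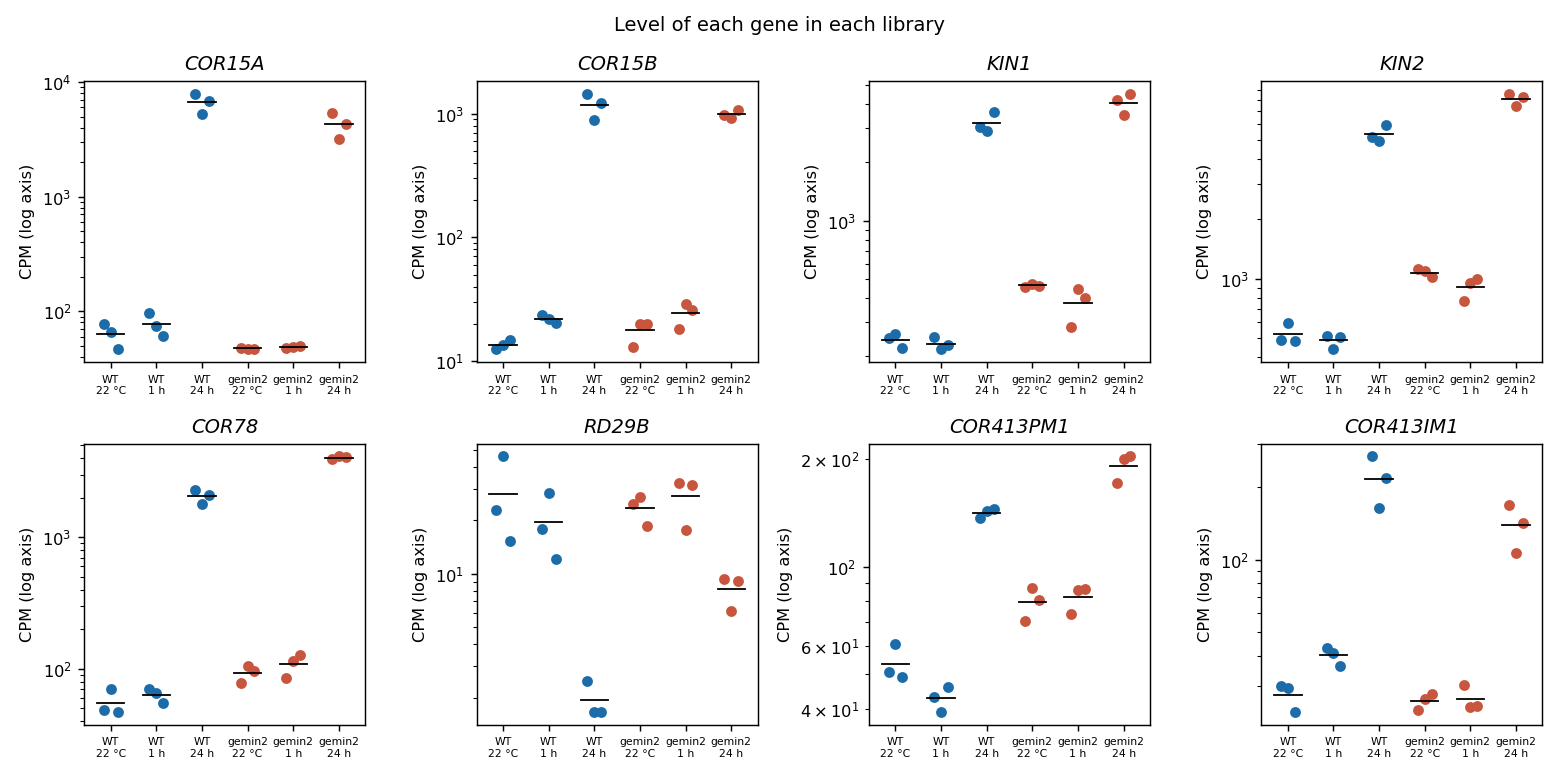
Levels of the 8 genes in CPM (log axis) in each of the 18 libraries, by group, with a line at the group mean. Of the 8 genes, 7 stand higher in all 24 h libraries than in all 22 °C libraries of the same genotype, and RD29B stands lower.

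Per kilobase of gene model, KIN2 had the highest level of the 8 in WT at 24 h, with a mean of 11170 CPM per kb, followed by COR15A with 8344, KIN1 with 5848 and COR15B with 1815. COR78 had 821, COR413IM1 238, COR413PM1 158 and RD29B 0.909 CPM per kb. At 22 °C the order was KIN2 (1092 CPM per kb), KIN1 (442), COR15A (79.5), COR413PM1 (59.7), COR413IM1 (30.5), COR78 (22.1), COR15B (20.8) and RD29B (13.1).

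In gemin2 the same directions were called after 24 h, 7 genes higher and RD29B lower, with 60.1% of all genes called, 30.1% higher and 30% lower. None of the 8 had libraries that overlapped between 22 °C and 24 h, where 33.2% of all genes were higher and 32.7% lower without overlap. COR15A rose 90.0-fold, COR15B 55.9-fold, COR78 43.5-fold, KIN1 8.81-fold, KIN2 7.55-fold, COR413IM1 5.32-fold and COR413PM1 2.42-fold. RD29B fell by 1.52 ± 0.35 on the log2 scale, which is 2.87-fold (adjusted p = 0.001005). KIN2 reached 8567, 7445 and 8277 CPM in gemin2 at 24 h and ranked 2 or 3 among all genes in each of these libraries. The 8 genes took 0.183% ± 0.0311 of counts in gemin2 at 22 °C and 2.27% ± 0.145 at 24 h. At 22 °C the share was 0.196%, 0.207% and 0.148% in gemin2 libraries A, B and C. Library C held 17.6% of its counts on chloroplast genes, and the part of this in its share was not tested. Between 1 h and 24 h of cold, 7 genes rose and RD29B fell in both genotypes, where 53% of all genes were called in WT (23.9% higher, 29.1% lower) and 59% in gemin2 (28.5% higher, 30.5% lower). In that comparison the rise of COR15A was 87.2-fold in WT and 87.7-fold in gemin2, and RD29B was 10.4-fold lower in WT and 3.34-fold lower in gemin2.

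The 1 h comparison caught the genes before their main rise. In WT, 2 genes rose and 1 fell, where 25.6% of all genes were called, 14.7% higher and 10.8% lower. COR15B had 23.5, 21.8 and 20.3 CPM at 1 h, above all WT libraries at 22 °C, a log2 change of 0.69 ± 0.19 (adjusted p = 0.01383). COR413IM1 had 43.2, 41.1 and 36.5 CPM at 1 h, also above all 22 °C libraries, with a log2 change of 0.54 ± 0.17 (adjusted p = 0.0259). COR413PM1, at 43.2, 39.2 and 45.9 CPM, lay below its 22 °C libraries, with a log2 change of -0.32 ± 0.11 (adjusted p = 0.03453). Each of these 3 calls was lost without certain libraries. Without WT 1 h library A the adjusted p was 0.05156 for COR15B, 0.08761 for COR413IM1 and 0.08104 for COR413PM1. With the COR15 pair summed, the WT change at 1 h was 0.35 (adjusted p = 0.1679). COR413IM1 also lost its call without WT 1 h library B (0.07109) or WT 22 °C library C (0.1209), and COR413PM1 without WT 1 h library B (0.1462) or WT 22 °C library B (0.184).

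The other 5 genes did not pass the test in WT at 1 h. KIN2, for instance, had 514, 440 and 506 CPM, and COR78 had 69.8, 65.2 and 55.4 CPM, each overlapping the range at 22 °C. In gemin2 none of the 8 was called at 1 h by edgeR or by DESeq2, where edgeR called 9.43% of all genes, 6.27% higher and 3.16% lower. COR15B, with a log2 change of 0.46, and KIN1, with -0.31, had unadjusted p-values under 0.05 there. Without gemin2 1 h library A the log2 change of COR15B in gemin2 was 0.63 (adjusted p = 0.03467). No difference between the genotypes in the 1 h response was called for any of the 8 by edgeR or by DESeq2, where edgeR called 0.0912% of genes, 0.0456% in each direction; COR413PM1 and COR413IM1 had unadjusted p-values under 0.05.

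**Figure D3:**
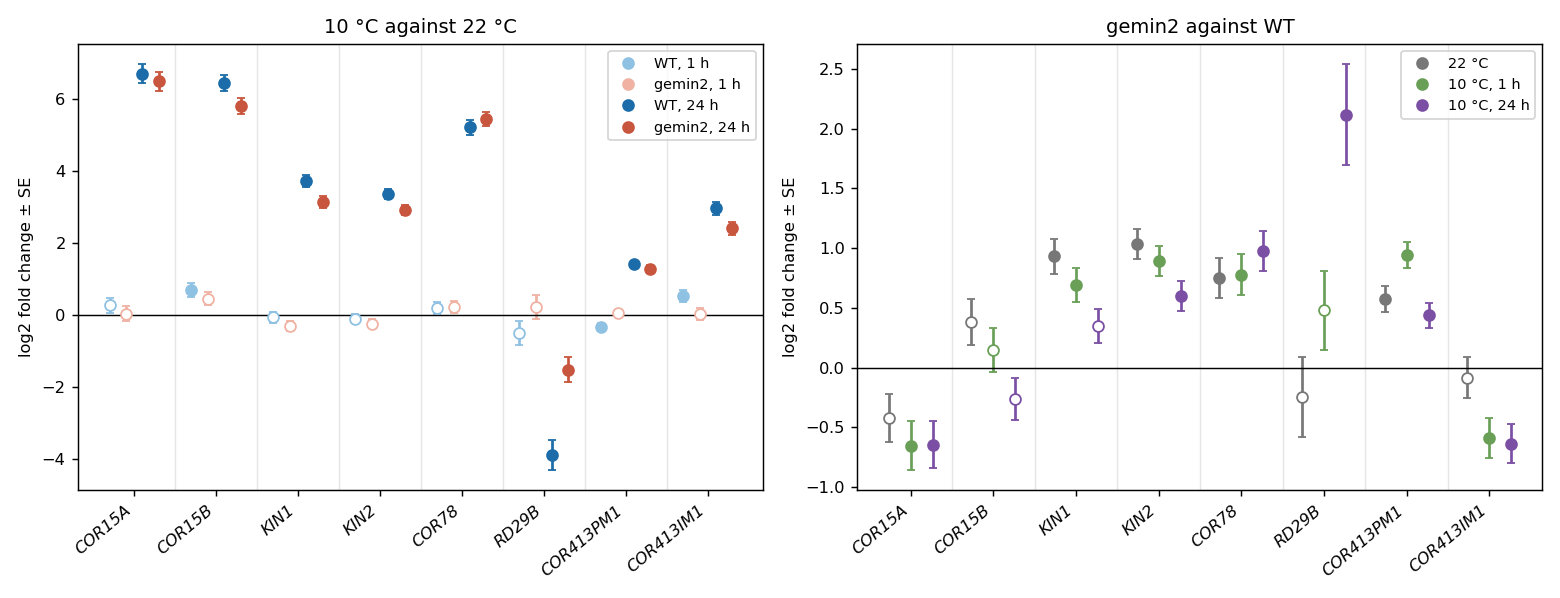
Log2 fold changes with SE for the 8 genes, cold against 22 °C on the left and gemin2 against WT on the right. Filled points have an adjusted p under 0.05 and open points do not. The changes at 24 h of cold run from -3.89 for RD29B to 6.71 for COR15A in WT, while those between genotypes run from -0.65 to 2.12.

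Before any cold, 4 of the 8 genes were higher in gemin2 than in WT, none was lower and 4 did not pass, where 21.1% of all genes were called, 10.7% higher and 10.4% lower. The libraries of these 4 did not overlap between genotypes; over all genes 19.5% were higher and 19.8% lower without overlap. KIN2 had 1113, 1089 and 1016 CPM in gemin2 against 490, 600 and 483 CPM in WT. All gemin2 libraries stood above all WT libraries, with a log2 difference of 1.03 ± 0.13 (adjusted p = 1.742e-05). KIN1 had 457, 472 and 461 CPM in gemin2, all above the 219 to 261 CPM of WT, with a log2 difference of 0.93 ± 0.15 (adjusted p = 0.0001953). COR78 had 77.8, 104 and 96.2 CPM in gemin2 against 47.1 to 70.5 CPM in WT, a log2 difference of 0.75 ± 0.17 (adjusted p = 0.00406). For COR413PM1 the gemin2 libraries had 70.4, 87.3 and 80.5 CPM against 48.9 to 60.7 CPM in WT, a log2 difference of 0.57 ± 0.11 (adjusted p = 0.0009112). The median log2 difference of the 8 was 0.48, beside 0.00 over all genes.

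The other 4 genes at 22 °C had log2 differences of -0.42 ± 0.20 for COR15A (adjusted p = 0.1501), 0.38 ± 0.19 for COR15B (0.1711), -0.08 ± 0.17 for COR413IM1 (0.7638) and -0.25 ± 0.33 for RD29B (0.6424). RD29B was highest in WT library B, with 45.9 CPM, and the summed level of 7 seed maturation genes was also highest there, 20.4 CPM against 3.88 CPM in the lowest WT library at 22 °C. Without that library the log2 difference of RD29B was 0.30. The part of seed maturation transcripts in that value was not tested.

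After 1 h of cold, 4 genes were higher in gemin2, 2 were lower and 2 did not pass, where 34.4% of all genes were called, 16.6% higher and 17.8% lower. The 4 higher genes were again KIN2, KIN1, COR78 and COR413PM1. The libraries of all 6 did not overlap between genotypes, where 24.4% of all genes were higher and 23.4% lower without overlap. COR413PM1 had 73.7, 86.2 and 86.4 CPM in gemin2 against 39.2 to 45.9 CPM in WT, a log2 difference of 0.94 ± 0.11 (adjusted p = 4.666e-06). KIN2 differed by 0.89 ± 0.13, COR78 by 0.78 ± 0.17 and KIN1 by 0.69 ± 0.15 on the log2 scale (adjusted p = 4.307e-05, 0.00168 and 0.001421). The 2 lower genes, COR15A and COR413IM1, encode chloroplast proteins. COR15B, which also encodes one, did not pass, with a log2 difference of 0.15 ± 0.18 (adjusted p = 0.5592). COR15A had 47.5, 49.1 and 49.9 CPM in gemin2, below the 60.4 to 95.8 CPM of WT, with a log2 difference of -0.65 ± 0.20 (adjusted p = 0.01819). Without WT 1 h library A, the highest of them, the difference was -0.47 (adjusted p = 0.116). That of the summed counts of the COR15 pair was -0.43 (adjusted p = 0.07451). COR413IM1 had 30.4, 24.7 and 24.8 CPM in gemin2 against 36.5 to 43.2 CPM in WT, a log2 difference of -0.59 ± 0.17 (adjusted p = 0.01038).

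After 24 h of cold, 4 genes were higher in gemin2, 2 were lower and 2 did not pass, where 40.2% of all genes were called, 21.7% higher and 18.6% lower. The 4 higher genes, and neither of the lower ones, had libraries that did not overlap, where 26.3% of all genes were higher and 21.7% lower without overlap. COR78 had 3910, 4112 and 4084 CPM in gemin2 against 1790 to 2280 CPM in WT, a log2 difference of 0.98 ± 0.17 (adjusted p = 0.0001451). KIN2, at 7445 to 8567 CPM in gemin2 and 4975 to 5945 CPM in WT, differed by 0.60 ± 0.13 (adjusted p = 0.0009756). COR413PM1 had 172, 201 and 204 CPM in gemin2 against 137 to 145 CPM in WT, a log2 difference of 0.44 ± 0.10 (adjusted p = 0.002704). All gemin2 libraries stood above all WT libraries for these 3 genes. KIN1, called at 22 °C and 1 h, did not pass at 24 h, with a log2 difference of 0.35 ± 0.14 (adjusted p = 0.06384). It passed with DESeq2 (0.34, adjusted p = 0.04031), without gemin2 24 h library B (0.44, 0.03681), without WT 24 h library C (0.45, 0.03726) and with the letters as a block (0.35, 0.04972). The summed counts of the KIN pair, of which KIN2 held the larger part, differed by 0.51 (adjusted p = 0.0049). That value is not one of KIN1 alone.

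RD29B had 9.33, 6.20 and 9.08 CPM in gemin2 at 24 h against 2.49, 1.67 and 1.66 CPM in WT. All 3 gemin2 libraries stood above all 3 WT libraries, and the log2 difference was 2.12 ± 0.42, or 4.34-fold (adjusted p = 0.0006038). COR15A had 5357, 3192 and 4294 CPM in gemin2 against 7896, 5289 and 6892 CPM in WT. The groups overlapped, since gemin2 library A exceeded WT library B, and the log2 difference was -0.64 ± 0.20 (adjusted p = 0.01525). Without gemin2 24 h library B it was -0.47 (adjusted p = 0.08845), and without WT 24 h library A it was -0.51 (adjusted p = 0.07445). With the letters as a block it was -0.65 (adjusted p = 0.002602): both genotypes had their highest library in A and their lowest in B. COR413IM1 had 169, 107 and 141 CPM in gemin2 against 266, 164 and 218 CPM in WT, again with 1 overlap, the same order of letters in both genotypes, and a log2 difference of -0.64 ± 0.16 (adjusted p = 0.004302; 0.0008159 with the block). COR15B differed by -0.26 ± 0.18 (adjusted p = 0.2496). The summed counts of the COR15 pair, of which COR15A held the larger part, differed by -0.58 (adjusted p = 0.016).

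The response to 24 h of cold differed between the genotypes, by a test of the difference itself, for 1 of the 8 genes, where 13.9% of all genes were called, 7.34% higher and 6.52% lower. That gene was RD29B, whose log2 change was higher in gemin2 by 2.36 ± 0.54 (adjusted p = 0.006457). Beside it, the summed level of the 7 seed maturation genes was 3.88 to 20.4 CPM in WT and 4.73 to 7.13 CPM in gemin2 at 22 °C, and 1.76 to 3.99 and 3.57 to 4.33 CPM at 24 h. Between genotypes at 24 h, 2 of the 5 that could be tested were higher and 1 was lower in gemin2. Of all genes 40.2% were called there, 21.7% higher and 18.6% lower. The median log2 difference of the 5 was 0.95, beside 0.02 over all genes. None of the 5 was called for the difference in the 24 h change, where their median was 0.97, beside 0.02 over all genes. The part of the seed maturation genes in the RD29B result was not tested. The RD29B call held without each library in turn, with log2 differences of 1.82, without WT 22 °C library B, to 2.66. The log2 changes of the other genes differed by -0.64 ± 0.26 for COR15B (adjusted p = 0.1132), -0.59 ± 0.20 for KIN1 (0.06399), -0.55 ± 0.24 for COR413IM1 (0.1314), -0.44 ± 0.18 for KIN2 (0.1116), -0.22 ± 0.28 for COR15A (0.6745), -0.14 ± 0.15 for COR413PM1 (0.6127) and 0.23 ± 0.24 for COR78 (0.586). KIN1 and KIN2 were called with DESeq2 (adjusted p = 0.0244 and 0.04204), and KIN1 with the letters as a block (-0.58, adjusted p = 0.04818), on the compared groups alone (0.04497) and without rRNA and organelle genes (-0.64, 0.03984). Leaving out a library moved 2 more genes past the threshold: COR15B without gemin2 22 °C library A (-0.82, adjusted p = 0.0386) or WT 24 h library B (-0.81, 0.03933), and COR413IM1 without gemin2 24 h library A (-0.71, 0.04202) or WT 24 h library B (-0.72, 0.03942).

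From 1 h to 24 h of cold the change differed between genotypes for COR413PM1 among the 8, where 12.8% of all genes were called, 6.91% higher and 5.89% lower. COR413PM1 rose by 1.73 in WT and by 1.23 in gemin2 on the log2 scale, a difference of -0.50 ± 0.15 (adjusted p = 0.03153). The call was lost without any 1 of 7 of the 12 libraries compared (gemin2 1 h B or C, gemin2 24 h A, WT 1 h A or B, WT 24 h B or C), with adjusted p-values of 0.0605 to 0.0882. RD29B differed by 1.64 ± 0.54 in the same comparison (adjusted p = 0.05182). It was called with DESeq2 (1.59, adjusted p = 0.04722), with no filter (0.03107), on the compared groups alone (0.04151), with the letters as a block (1.61, 0.03957) and without gemin2 1 h library A (1.79, 0.04019), gemin2 24 h library B (1.80, 0.04632) or WT 1 h library C (1.89, 0.02549).

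Within the neighbouring pairs, the ratio of counts in the same library does not depend on the scaling of libraries. COR15A had 6.28, 4.88 and 3.19 times the counts of COR15B in WT at 22 °C and 3.72, 2.34 and 2.38 times in gemin2. At 1 h the ratios were 4.08, 3.41 and 2.98 in WT and 2.62, 1.70 and 1.93 in gemin2, and at 24 h they were 5.44, 5.94 and 5.68 in WT and 5.49, 3.47 and 4.03 in gemin2. The gemin2 libraries were lower at 1 h without overlap, and overlapped WT by 1 library each at 22 °C and 24 h. Over the 3 conditions the log2 ratio was lower in gemin2 by -0.64 on average (exact permutation test within conditions, two-sided, 8000 permutations, p = 0.002, adjusted over 9 ratio tests 0.01125). Cold moved this ratio by -0.42 at 1 h (adjusted p = 0.12, exact permutation test) and by 0.47 at 24 h (adjusted p = 0.108, exact permutation test), neither of which passed. Those tests passed without WT 22 °C library C at 1 h (-0.55, adjusted p = 0.045 by the exact permutation test) and without WT 22 °C library A at 24 h (0.58, adjusted p = 0.018 by the exact permutation test).

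KIN2 had 1.97, 2.30 and 2.21 times the counts of KIN1 in WT at 22 °C and 2.43, 2.31 and 2.21 times in gemin2. At 24 h the ratios were 1.69, 1.71 and 1.63 in WT and 2.05, 2.11 and 1.83 in gemin2, below those at 22 °C in each genotype. The 24 h ratio was lower by -0.29 on the log2 scale (exact permutation test, p = 0.005, the smallest that 400 permutations give here, adjusted p = 0.01125). Over the 3 conditions it was higher in gemin2 by 0.19 (exact permutation test, p = 0.0025, adjusted p = 0.01125). COR78 and RD29B moved apart. COR78 had 2.10, 1.54 and 3.09 times the counts of RD29B in WT at 22 °C and 917, 1074 and 1253 times at 24 h. In gemin2 the ratio was 3.16, 3.86 and 5.15 at 22 °C and 419, 664 and 450 at 24 h. The log2 ratio was higher at 24 h by 7.95 (exact permutation test, p = 0.005, adjusted p = 0.01125). Over the 3 conditions the mean difference between genotypes was 0.02 (exact permutation test, p = 0.949), an average of opposite signs: the ratio was higher in gemin2 at 22 °C and lower at 24 h, without overlap in either, and these conditions were not tested singly.

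**Figure D4:**
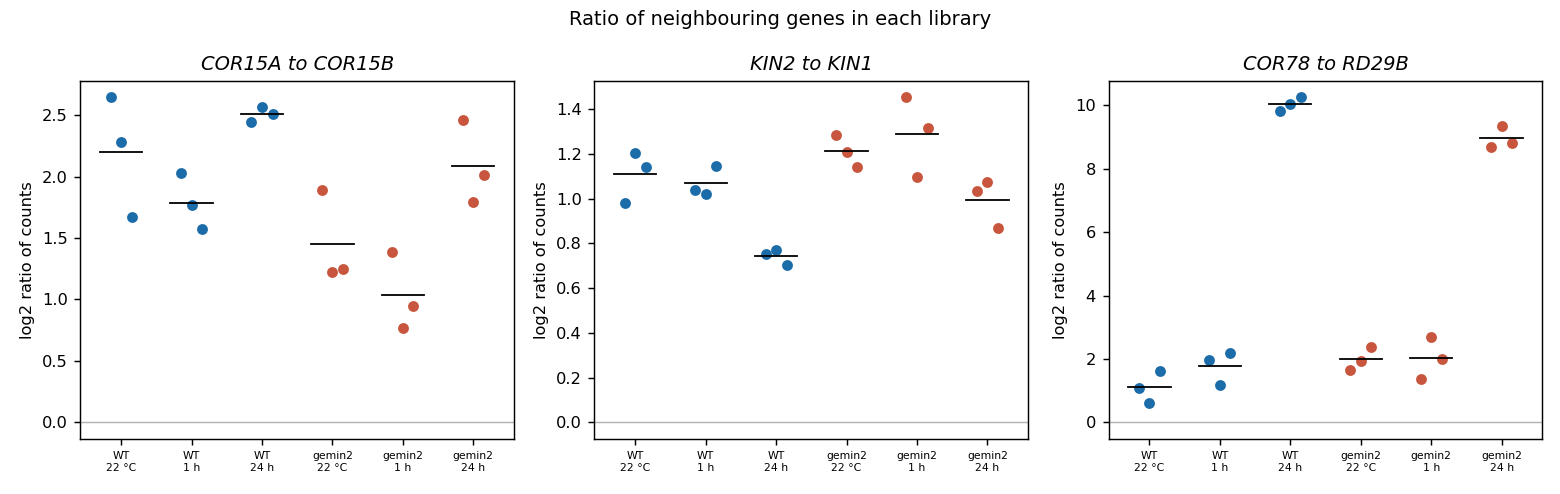
Log2 ratio of counts between neighbouring genes in each library, for COR15A to COR15B, KIN2 to KIN1 and COR78 to RD29B, by group. The ratio of COR78 to RD29B stands above 8 in all 24 h libraries and below 3 in all others; the other pairs move by less than 2 between any libraries.

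Introns of these genes were counted at low levels beside their genes. Of the 22 introns, 13 had enough counts to be tested, among 9366 in all, and each was tested relative to the count of its own gene. Intron values are given as the intron's count in percent of the gene's count. Of the 5 introns that differed between genotypes at 1 h, the 3 from different genes and of under 300 bases are shown: COR15B intron I001, chr2:17709420-17709676 on the minus strand, COR413PM1 intron I003, chr2:6950680-6950767 on the plus strand, and KIN1 intron I002, chr5:5210292-5210398 on the plus strand. They are read 5′ to 3′ from the RefSeq TAIR10.1 genome, and capitals mark the first 6 and the last 2 bases, the ends of the intron that the spliceosome recognises.
COR15B I001: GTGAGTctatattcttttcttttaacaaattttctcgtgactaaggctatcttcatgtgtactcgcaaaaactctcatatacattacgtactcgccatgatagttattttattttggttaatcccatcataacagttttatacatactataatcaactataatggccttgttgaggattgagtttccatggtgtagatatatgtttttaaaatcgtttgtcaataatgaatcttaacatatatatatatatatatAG
COR413PM1 I003: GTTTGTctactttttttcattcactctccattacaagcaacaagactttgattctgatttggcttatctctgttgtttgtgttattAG
KIN1 I002: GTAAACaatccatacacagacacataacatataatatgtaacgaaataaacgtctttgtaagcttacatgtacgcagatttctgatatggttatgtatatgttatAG

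At 22 °C no intron of the 8 genes was called between genotypes by edgeR, where 4.77% of all introns were called (3.88% higher, 0.897% lower), and 2 had unadjusted p-values under 0.05; no second tool was run on introns. One of those was KIN2 intron I001, with 1.39%, 1.53% and 0.224% in gemin2 against 0.303%, 0.460% and 0.351% in WT. Library C of gemin2 was the low one, and without it the log2 difference was 1.97 (adjusted p = 0.0007039), against 1.50 ± 0.46 with it (adjusted p = 0.05699). Without any 1 of the other libraries compared it was 1.13 to 1.68 and did not pass (adjusted p = 0.09397 to 0.2396). Library C of gemin2 also stood apart in holding 17.6% of its counts on chloroplast genes, against 0.232% to 3.17% in the other 17. The part of this in the intron value was not tested.

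After 1 h of cold, 5 introns differed between genotypes, 3 higher and 2 lower in gemin2, where 13.5% of all introns were called, 11.9% higher and 1.64% lower, and the median log2 difference of all introns was 0.24. The single intron of COR15B had 5.47%, 4.54% and 4.36% in gemin2, from 49, 49 and 40 counts, against 0.792%, 1.87% and 2.23% in WT. All gemin2 libraries stood above all WT libraries, with a log2 difference of 1.49 ± 0.31 (adjusted p = 0.001283). In COR413PM1, intron I003 had 1.07%, 1.67% and 1.27% in gemin2 against 0.862%, 0.445% and 0.617% in WT, a log2 difference of 1.10 ± 0.37 (adjusted p = 0.04586). COR15A intron I002, an intron in all 4 RefSeq transcripts of the gene, had 1.28%, 0.435% and 1.13% in gemin2 against 0.631%, 0.352% and 0.328% in WT, with overlap, and a log2 difference of 1.16 ± 0.36 (adjusted p = 0.03337). These last 2 calls were each lost without any 1 of 4 libraries: the adjusted p was 0.0842 to 0.2086 for COR413PM1 I003 (gemin2 1 h B or C, WT 1 h B or C) and 0.1182 to 0.1743 for COR15A I002 (gemin2 1 h A or C, WT 1 h B or C). Without the gene count as offset COR15A I002 differed by 0.50 (adjusted p = 0.4862). With all introns of a mean of at least 3 counts in the edgeR test, COR413PM1 I003 had an adjusted p of 0.08444.

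The 2 introns lower in gemin2 at 1 h were COR15A I003 and KIN1 I002. COR15A I003, which is an intron in 2 of the 4 RefSeq transcripts and lies inside an exon of 1 of them, had 4.87%, 3.54% and 4.35% in gemin2 against 8.55%, 10.4% and 6.23% in WT, a log2 difference of -0.98 ± 0.22 (adjusted p = 0.002868). KIN1 I002 had 0.0432%, 0.0539% and 0.0567% in gemin2 against 0.186%, 0.161% and 0.124% in WT, a log2 difference of -1.58 ± 0.39 (adjusted p = 0.006933), on 23 counts in the gemin2 libraries and 32 in the WT libraries. Tested without the gene count as offset, the difference was -0.89 (adjusted p = 0.1506). Neither pair of groups overlapped. After 24 h no intron was called between genotypes by edgeR, where 16.5% of all introns were called; COR15A I003 had an unadjusted p under 0.05.

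Cold itself moved some of these introns relative to their genes. The COR15B intron rose by a log2 change of 4.26 ± 0.48 in gemin2 at 1 h (adjusted p = 4.818e-06), from 4 counts in the 3 libraries at 22 °C to 138. At 1 h it was 1 of 3 introns that rose in gemin2, where 7.1% of all introns were called. At 24 h it stood at 1.26%, 1.06% and 1.30% in gemin2 and at 0.992%, 1.10% and 1.06% in WT. In WT its rise at 1 h was 2.70 ± 0.75 (adjusted p = 0.03202), one of 4 introns that rose, where 5.86% were called. That call was lost without WT 1 h library B or C or WT 22 °C library A or B (adjusted p = 0.0883 to 0.1236). The difference between genotypes in the 1 h change was not called for any intron of the 8 genes by edgeR, where 0.032% of all introns were called; 5 had unadjusted p-values under 0.05.

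COR15A intron I002 held no count in WT at 22 °C, beside 3551 counts of the gene, which allows a share of up to 0.0845% (3 counts over the group). It held 0.43% in WT at 1 h, at least 5.09-fold more, and 1.36% at 24 h, at least 16.1-fold more (adjusted p = 0.002981 and 1.072e-05). Of COR15A I003 the WT libraries had 4.33%, 4.17% and 4.12% at 22 °C and 8.55%, 10.4% and 6.23% at 1 h, a log2 change of 1.00 ± 0.23 (adjusted p = 0.01001). Without WT 1 h library B it was 0.81 (adjusted p = 0.07576). KIN1 I002 rose in WT at 1 h by 1.79 ± 0.54 (adjusted p = 0.04707), a call lost without each of the 6 libraries compared (adjusted p = 0.0525 to 0.2519).

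At 24 h in WT, 5 introns rose relative to their genes, where 3.64% of all introns were called: COR15A I002 and both introns of KIN1 and of KIN2. KIN2 I001 had 2.09%, 1.76% and 1.55% at 24 h against 0.303% to 0.460% at 22 °C, a log2 change of 2.28 ± 0.46 (adjusted p = 0.004729). KIN1 I001 had 3.47%, 3.14% and 2.83% against 1.09% to 1.18%, a log2 change of 1.47 ± 0.31 (adjusted p = 0.007215). No library of either group overlapped the other for these introns. The second introns changed by 1.05 ± 0.24 in KIN2 (adjusted p = 0.01356) and by 2.06 ± 0.46 in KIN1 (adjusted p = 0.0114). The KIN2 I002 call was lost without WT 24 h library A (adjusted p = 0.05571) or WT 22 °C library B or C (0.07003 and 0.0725), and the KIN1 I002 call without WT 22 °C library C (0.0791).

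In gemin2 at 24 h, 4 introns rose, where 13% of all introns were called. They were COR15A I002 (log2 change 3.33 ± 0.42, adjusted p = 8.743e-06), COR15B I001 (2.27 ± 0.54, 0.005626), KIN1 I002 (1.73 ± 0.32, 0.0005499) and KIN2 I002 (1.25 ± 0.21, 0.0001925). The COR15B call was lost without gemin2 22 °C library C (1.67, adjusted p = 0.05822). No intron of the 8 genes was called for a difference between genotypes in the 24 h change by edgeR, where 0.545% of all introns were called; 2 had unadjusted p-values under 0.05. The 2 tested introns of COR78 and the 1 of COR413IM1 were called in none of the comparisons. The other 9 of the 22 introns, among them all 4 of RD29B and 4 of COR413IM1, had too few counts for a test.

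**Figure D5:**
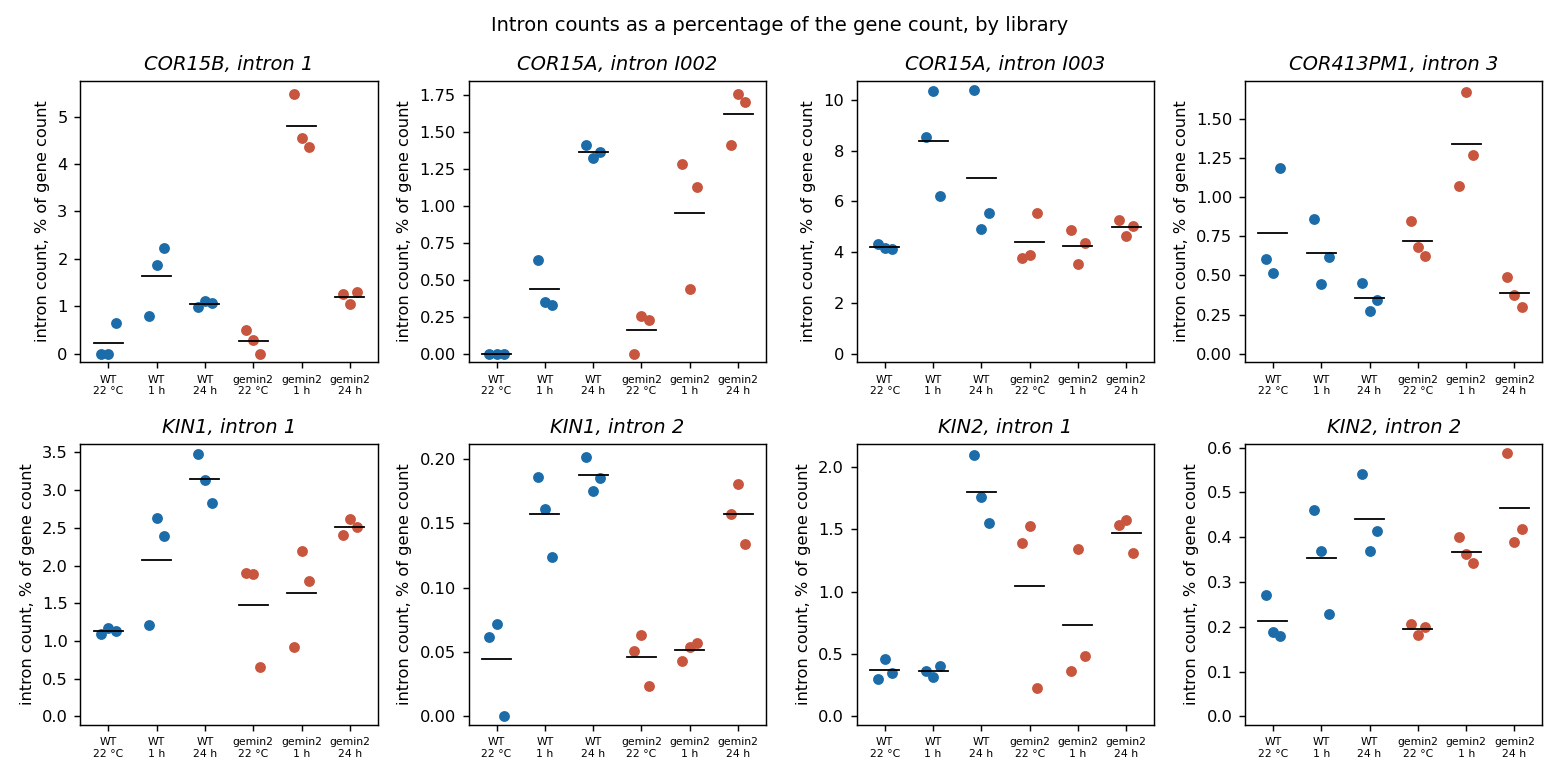
Intron counts in percent of the count of their gene in each library, for 8 introns of COR15A, COR15B, COR413PM1, KIN1 and KIN2, by group. The COR15B intron stands at 4.36% to 5.47% in gemin2 at 1 h and at 2.23% or less in the other groups.

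Of the 3 alternative splicing bins, the retained-intron bin of COR15A, which is exonic in 3 of its 4 RefSeq transcripts, held 51.1% to 66.5% of the gene's count over the 18 libraries, and the retained-intron bin of COR413PM1 held 36.2% to 44.9%. The COR15A bin is 69 bases wide in a gene model of 802 bases, and the COR413PM1 bin 144 bases in 896. How reads were assigned to bins is not given, so these percentages are not shares of transcripts. The 3-base alternative 3′ splice site bin of RD29B held 1.27% to 4.65%. None of the 3 was called in any of the 9 comparisons by edgeR, where 0% to 8.58% of all bins were called; the RD29B bin had an unadjusted p under 0.05 in the 24 h difference between genotypes.

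The regulators of these genes and other targets were read from lists. Between genotypes, 21.1% of all genes were called at 22 °C, 34.4% at 1 h and 40.2% at 24 h. Of 10 CBF pathway regulators, 2 were higher in gemin2 at 22 °C, 6 at 1 h and 3 at 24 h, and none was lower. CBF3, one of the CBF activators, was higher in gemin2 at 1 h by 1.55 ± 0.35 (adjusted p = 0.002217). In WT at 1 h, when 5 of the 8 genes did not pass the test, CBF2 rose by 5.78 ± 0.53 (adjusted p = 1.944e-07) and CBF3 by 3.18 ± 0.48 (adjusted p = 9.413e-05). Of 12 other cold-regulated targets, 4 were higher and 1 lower in gemin2 at 22 °C, 4 and 2 at 1 h, and 7 and 1 at 24 h. Among them COR413IM2, the neighbour and relative of COR413IM1, was lower in gemin2 in all 3 conditions, by -0.82, -0.86 and -0.73 (adjusted p = 0.007182, 0.00289 and 0.006596). Whether COR413IM1 and COR413IM2 shared reads was not tested. LTI30, a dehydrin, was higher at 24 h by 1.46 ± 0.13 (adjusted p = 1.462e-07).

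Of 12 ABA and drought response genes, the list closest in kind to RD29B, 1 was higher and 1 lower in gemin2 at 22 °C, 4 and 2 at 1 h, and 8 and 2 at 24 h, beside the same 21.1%, 34.4% and 40.2% of all genes. In WT 24 h of cold raised 1 and lowered 7 of them, where 55.7% of all genes were called. The 24 h change differed between genotypes for 3 of the 12, where 13.9% of all genes were called, and was higher in gemin2 for each: RAB18, a dehydrin induced by ABA (1.50, adjusted p = 0.02153), RD22 (0.55, 0.02996) and the phosphatase ABI2 (0.62, 0.03964). Beside these values, the summed level of 4 green tissue markers was 64700 to 73100 CPM in WT and 48100 to 57500 CPM in gemin2 at 22 °C, and 42200 to 46100 and 36300 to 50600 CPM at 24 h. At 1 h they were 63800 to 71900 CPM in WT and 50500 to 70200 CPM in gemin2. The summed level of 4 root markers was 64.4 to 76.6 CPM in WT and 60.1 to 61.7 CPM in gemin2 at 22 °C, 86.4 to 98 and 56.8 to 68.5 CPM at 1 h, and 58.4 to 68.7 and 49.8 to 55.2 CPM at 24 h. Of the 4 root markers 1 was called lower in gemin2 at 22 °C, 4 at 1 h and 2 at 24 h, and none was called higher. Of the 4 green tissue markers 2 were called lower at 22 °C, 1 higher and 2 lower at 1 h, and none at 24 h. Over all genes 10.4%, 17.8% and 18.6% were called lower and 10.7%, 16.6% and 21.7% higher in these conditions. The part of green tissue and root in the differences between genotypes was not tested.

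Over the 6 group means of log2 CPM, and among 14784 genes, the genes whose pattern was most like that of a member had Pearson correlations of 0.998 to 1.00. They were AT3G03920 for COR15A, AT3G51350 for COR15B, EDA25 for KIN1, RBL for KIN2, AT5G66540 for COR78, AT3G17520 for RD29B, ATADA2A for COR413PM1 and SHM3 for COR413IM1. With 6 points dominated by the 24 h groups, such values describe a shared shape only.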

How the data were processed

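The deposited tables hold whole-number counts for genes, introns and alternative splicing bins in 18 libraries. Per the submitters' processing notes, TopHat2 2.0.9, R 3.0.2 and edgeR 3.4.2 were used with the TAIR10 genome. How reads were counted, and whether by strand, is not given in the sources used here. Columns carry letters A to C that the labels do not tie to their replicate numbers.

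Gene counts were tested with edgeR 4.0.16 (TMM, filterByExpr, quasi-likelihood, 1 fit over 6 groups, Benjamini-Hochberg over all 21918 genes, adjusted p under 0.05) in R 4.3.3. Introns and bins were tested likewise with the log count of their gene as offset, where the mean count was at least 10, the gene mean at least 50 and the gene count at least 10 in every library. Pair ratios of counts + 1 were compared by exact permutation. The scripts were tested on simulated data. Floors (3 counts) cover counting error only. The SE of a log2 change comes from the quasi-likelihood fit and includes the spread between libraries. DESeq2 1.42.0, RLE factors, no filter, a block by letter, the compared groups alone, removal of rRNA and organelle genes, summed pairs and leaving out each library were tried.

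The authors' coordinates matched RefSeq TAIR10.1: 98.7% of 120457 introns placed on it begin with GT and end with AG. All 8 genes and their introns and bins are named. Of each other list, up to 3 genes with the smallest adjusted p in a comparison may be named, and for each of the 8 the gene with the most similar pattern. COR413IM2, as a neighbour, was named after its values were seen. The genes and lists were chosen with earlier results of these data known.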

Additional observations from a re-analysis of the deposited data

Results flagged for a closer look

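RD29B stood out because its response to 24 h of cold differed between gemin2 and WT by a test of the difference itself: the log2 change was higher in gemin2 by 2.36. The mean level in WT went from 28.0 to 1.94 CPM and that in gemin2 from 23.5 to 8.20 CPM.

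COR413PM1 stood out by the same kind of test for the change from 1 h to 24 h of cold, which was lower in gemin2 by a log2 difference of -0.50. Its mean level went from 42.8 to 142 CPM in WT and from 82.1 to 192 CPM in gemin2.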

How the results depend on the processing

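The labels' replicate numbers are not tied to the library letters, and whether letters pair libraries differed by condition: the correlation of deviations between same-lettered WT and gemin2 libraries was 0.163 to 0.341 at 24 h, each best with its own letter, 0.047 to 0.085 at 22 °C and -0.194 to 0.219 at 1 h. A replicate block by letter left 2 members called for a genotype difference in the 24 h change and 2 for that from 1 h to 24 h, against 1 each without it.

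For the 24 h difference DESeq2 called 3, and the fit on the compared groups or without rRNA and organelle genes 2; for that from 1 h to 24 h, DESeq2, no filter and the compared groups gave 2. Without the gene offset, introns called numbered 3 at 22 °C, 9 at 1 h (COR15A I002 and KIN1 I002 being lost) and 4 at 24 h between genotypes, and 10 in WT and 11 in gemin2 at 24 h of cold; bins numbered 1, 1, 2, 3 and 3. With a mean of at least 3 counts, 1 intron was called at 22 °C. The calls of COR413PM1 I003 between genotypes at 1 h and of KIN1 I002 in WT at 1 h were lost (edgeR, adjusted p = 0.08444 and 0.08468).

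The COR15A difference in the change from 1 h to 24 h, 0.01 as reported, was -0.015 with DESeq2, -0.0041 with no filter, -0.076 on the compared groups, -0.024 with the block, -0.015 with RLE factors, -0.074 without rRNA and organelle genes and -0.15 for the summed pair. Why the COR15A value changed sign was not tested. The summed counts of the COR15 pair, of which COR15A held the larger part, gave -0.43 at 1 h and -0.25 at 22 °C between genotypes. COR15B alone gave 0.15 and 0.38.

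Leaving out 1 library at a time gave ranges that change a count or sign. Members called ran from 0 to 1 (gemin2, 1 h), 0 to 3 (WT, 1 h), 1 to 3 (24 h difference) and 0 to 2 (1 h to 24 h difference); introns called from 0 to 1 (22 °C, 24 h and the 24 h difference), 3 to 5 (1 h between genotypes), 1 to 4 (WT, 1 h) and 3 to 6 (WT, 24 h). Log2 values ran from -0.18 to 0.17 for COR15A, -0.21 to 0.13 for COR413IM1 (both 1 h to 24 h difference), -0.074 to 0.080 for COR413IM1 and -0.032 to 0.12 for COR413PM1 (gemin2, 1 h), -0.18 to 0.18 for COR78 (1 h difference), -0.17 to 6e-04 for KIN2 and -0.90 to 0.040 for RD29B (WT, 1 h), and -0.54 to 0.30 for RD29B (genotypes, 22 °C). Log2 pair ratios ran from -0.55 to -0.30 and 0.34 to 0.58 (COR15 pair, 1 h and 24 h), -0.10 to 0.13 (COR78 to RD29B, genotype) and -0.023 to 0.067 (KIN pair, 1 h).

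Of the values recomputed, 1321 for single genes kept their direction and call, 19 lost and 23 gained the call, and 29 changed sign. The intron tally covers only introns already called, which could not gain a call. Of these values 158 kept and 31 lost the call. Counts of fewer than 50 for an intron in a group, as for KIN1 I002, limit what its differences can show.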
